A study of Rattus norvegicus with 4 samples.

Results

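Histone genes were described here in rat cortical neurons depleted of CMTR1, an enzyme that methylates the nucleotide next to the mRNA cap. The members were the gene probes whose name in the scanner files begins with Hist and a cluster number, or with H1f, H2af or H3f. A member had to be well above background, by the scanner software's flag, on at least 2 of 4 arrays. Where a gene had several such probes, the probe with the highest mean signal stood for it. The array named 40 such probes for 32 genes, and 31 genes passed, among 30360 genes measured in all. The Hist names gave 22 of 22 replication-dependent genes, and the other names gave 9 of 10 variant genes. Hist1h2ba, an H2B gene known from testis, was just inside the limit with 2 arrays well above background, and H1fnt, a testis linker histone, was outside it with 0. H1fnt read -7.11 and -7.62 in the controls and -7.02 and -6.83 after knockdown.

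Primary neurons were prepared from E18.5 embryonic cortices of Sprague Dawley rats, with both genders in each sample. Lentivirus was added, with a hairpin that targets Cmtr1 in the shCM1 group and a control hairpin in the shCTL group, on day 2 in vitro, and total RNA was taken on day 7. Each of the 2 groups held 2 arrays, 1 from each of 2 experiments that the series' design calls independent. The sample titles write si where the shRNA field writes sh, and the field was followed. No shRNA sequence and no second shRNA was used here, so a change due to loss of Cmtr1 and one due to another target of the hairpin cannot be told apart.

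Histones package DNA into nucleosomes, with H2A, H2B, H3 and H4 in the core and H1 on the linker DNA. Replication-dependent histone genes lie in clusters and are known for transcription in S phase, and their mRNAs normally end in a conserved stem-loop rather than a poly(A) tail. The genes of variant histones such as H2A.Z, macroH2A and H3.3 lie apart and give polyadenylated mRNAs. Such variants are used outside S phase, which includes neurons that no longer divide. The name decides the class here, and a few Hist genes, such as Hist1h1t and Hist1h2ba, are known mainly from the male germ line. The RNA was labelled with a kit for low RNA input. The labels give no primer, and how well such a protocol takes up mRNAs without a poly(A) tail was not tested.

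Levels are log2 signals relative to the 75th percentile of the same array, so a level of 0 is that percentile, and a level is compared only with the same probe on another array. Replicate 1 of both groups was scanned from 1 slide and replicate 2 of both groups from another, so a difference is the shCM1 level minus the shCTL level on the same slide. The targeted gene came first: Cmtr1 read -1.43 and -1.86 in the controls and -3.46 and -3.53 after knockdown. That was 27.7% of the control level, with no overlap (log2 difference -1.85, SE 0.22, adjusted p = 1.33e-07 in limma with the slide as a block and 1 without it). A gene is called where the adjusted p of a fit over all genes is under 0.05. The share of probes well above background ran from 84.0% to 90.4% per array, and all 10 markers of neurons were so on every array. Markers of microglia summed to 3.1 and 2.86 times the 75th percentile in the controls and to 4.74 and 3.77 after knockdown. Of 17 markers, 15 were higher on both slides, beside 44.0% of all genes. With the block, 8 were called higher, beside 3.7% of all genes. Their median difference was 0.67, but 0.41 under quantile scaling, 0.47 under loess and 0.28 with normexp. Under quantile scaling and under loess, 6 of these microglia markers were called with the block. Their part in the histone results was not tested. In bulk samples, fewer cells of a type and less RNA per cell cannot be told apart.

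Probe sequences were compared with other probes and not with the transcripts of other genes. A probe without a shared run may therefore still read other copies. Core histone genes of a type encode much the same protein, but their bases can differ. The Hist1h4m and Hist1h4b probes share at most 6 bases in a row. Of the 22 replication-dependent members, 5 had a probe that shared a run of at least 20 bases with another member's probe, against 0 of 9 variant members. The median probe began 244 bases into the transcript for replication-dependent members and 743 for variant members, with a median GC content of 54.2% and 45.0%. Through their accessions, the probes the files call Hist1h2bh and Hist1h2bl matched RefSeq genes of other names, Hist1h2bq and Hist1h2bg, so the copy each one reads is uncertain. The H2A probes are shown because their genes read alike below. Capitals mark the 20 bases that all 3 hold. Each is written 5′ to 3′ as the scanner files give it.
Hist1h2ak: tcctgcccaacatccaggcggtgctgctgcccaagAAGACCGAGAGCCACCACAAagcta
Hist1h2an: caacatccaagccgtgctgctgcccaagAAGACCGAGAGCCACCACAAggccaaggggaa
Hist1h2af: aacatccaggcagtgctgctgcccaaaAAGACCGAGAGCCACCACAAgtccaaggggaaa
Hist1h2ak lies at chr17:50436343-50436402, Hist1h2an at chr17:50342358-50342417 (both minus strand) and Hist1h2af at chr17:48514004-48514063 (plus strand), all in the rat assembly rn4 that the file headers name. Signal on these probes may come from any gene that holds the shared letters.

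The next probes are those of the 2 members that passed the paired test below, Hist1h2bk and Hist1h4m, and of a further H4 gene. Capitals mark a stop triplet where the probe ends in one, which places it at the end of the coding sequence.
Hist1h2bk: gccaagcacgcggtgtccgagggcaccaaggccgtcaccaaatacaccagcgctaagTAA
Hist1h4m: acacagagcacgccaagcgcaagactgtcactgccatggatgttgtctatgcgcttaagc
Hist1h4b: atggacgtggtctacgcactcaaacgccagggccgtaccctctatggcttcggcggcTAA
Hist1h2bk is at chr17:50118776-50118835 on the minus strand, Hist1h4m at chr17:50332623-50332682 and Hist1h4b at chr17:50113770-50113829, both on the plus strand (rn4). A further pair of probes reads the same H3 gene, Hist2h3c2, and overlaps by the 29 bases in capitals.
Hist2h3c2 probe at chr2:191081759-191081818: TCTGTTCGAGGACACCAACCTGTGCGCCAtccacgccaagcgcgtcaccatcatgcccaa
Hist2h3c2 probe at chr2:191081728-191081787: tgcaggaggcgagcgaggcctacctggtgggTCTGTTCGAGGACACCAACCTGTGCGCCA
The former stood for the gene.

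Replication-dependent histone genes were mostly a little lower after Cmtr1 knockdown, and few passed a test. Their median log2 difference was -0.13, with -0.11 on slide 1 and -0.15 on slide 2, against 0.08 for all genes. Of the 22 genes, 14 (63.6%) were lower in shCM1 on both slides, 1 (Hist1h1t) was higher on both and 7 went opposite ways. Over all genes, 22.6% were lower on both slides and 44.0% higher on both. The variant genes had a median of -0.10 (-0.02 and -0.11 by slide), with 5 of 9 lower on both slides and 2 higher. By position in rn4, the 16 replication-dependent genes of chromosome 17 had a median of -0.16, the 4 of chromosome 10 one of -0.22 and the 2 of chromosome 2 one of -0.02. All class medians are below 0 also under quantile, loess and normexp scaling and in the authors' value table, where the replication-dependent genes ran from -0.20 to -0.13 and the variant genes from -0.13 to -0.02.

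The design's main test, limma without a block, called 0 of 31 members and 0 of 30360 genes (0.0%) at an adjusted p under 0.05. At an unadjusted p under 0.05 it gave 0 members and 909 genes. With the slide as a block, which pairs the arrays of one replicate number, limma called 2049 genes (6.75%), 925 lower (3.05%) and 1124 higher (3.7%). That split turned to 578 lower and 363 higher under quantile scaling. Among the members this paired fit called Hist1h2bk and Hist1h4m, both lower, and 0 variant genes. The 2 of 22 stand beside 3.05% of all genes called lower. Both were among the 15 replication-dependent members above the 75th percentile, where 7.31% of 8610 genes were called lower, and with 2 genes no departure from that background is read from the count. Before adjustment, 10 of the 22 and 1 of the 9 variant genes were lower at p under 0.05 with the block, against 7.81% of all genes. Above the 75th percentile that held for 9 of 15 replication-dependent and 1 of 7 variant genes, beside 1549 of 8610 genes. A permutation of 2 against 2 arrays cannot go below an exact two-sided p of 0.33.

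**Figure D1:**
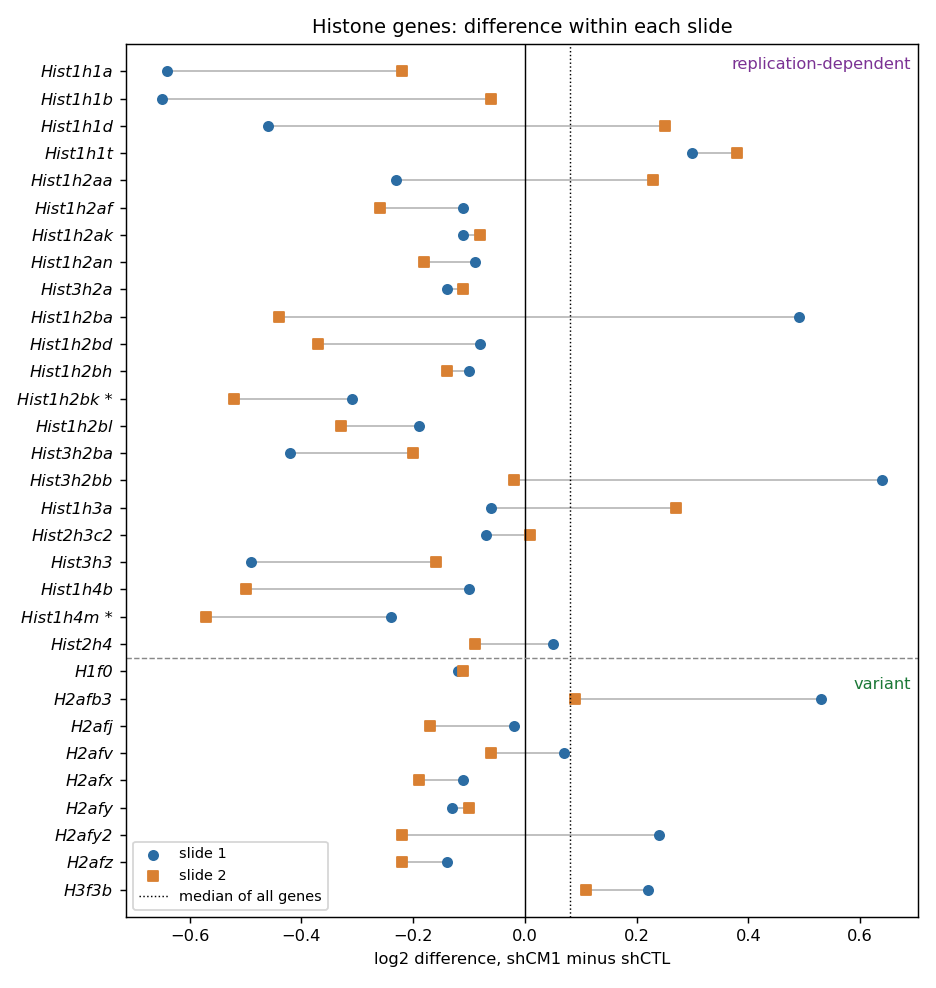
Log2 difference, shCM1 minus shCTL, of each of the 31 histone genes on slide 1 (blue circles) and slide 2 (orange squares), with replication-dependent genes above the dashed line and variant genes beneath it. Asterisks mark the 2 genes called by limma with the slide as a block, and the dotted line is the median of all genes, 0.08. In 14 of the 22 replication-dependent genes both points lie left of 0, and in 7 they lie on opposite sides.

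On the main scaling the difference was split by signal level. Of the 15 replication-dependent genes with a mean level above the 75th percentile, 13 were lower on both slides and the median difference was -0.23. Of the 7 below it, 1 was lower on both slides, 1 was higher, and the median was 0.02. Under quantile scaling and in the authors' table these medians were -0.17 and -0.19, and under loess -0.19 and -0.20, so the gap was not seen there. The 8610 genes above the 75th percentile had a median of -0.04, with 43.1% lower on both slides, and a median of 0.00 under quantile and loess scaling and in the authors' table. The part of signal level in the histone values was not tested.

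**Figure D2:**
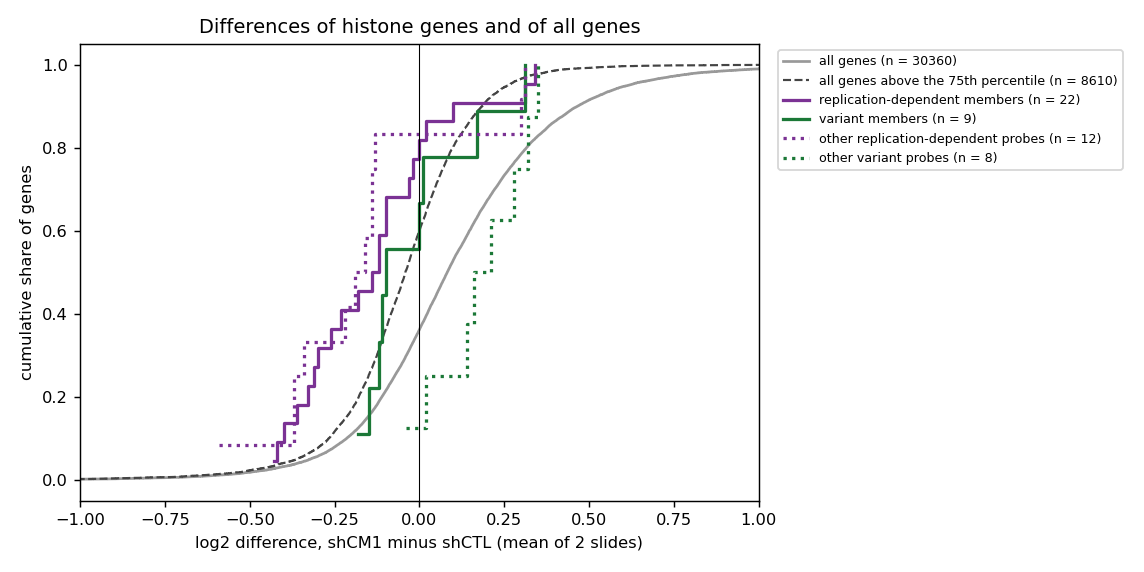
Cumulative share of genes (y axis) against the log2 difference, shCM1 minus shCTL, averaged over both slides (x axis), for all 30360 genes, the 8610 genes above the 75th percentile, the 22 replication-dependent and 9 variant members, and 12 and 8 further histone probes that the files name by transcript or locus. On this scaling the replication-dependent curves lie left of both background curves over most of their range, and the curve of the further variant probes lies to the right.

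H2B genes, which encode a core partner of H2A, held the clearest member. Hist1h2bk read 2.76 and 4.23 in the controls and 2.45 and 3.71 after knockdown. Both shCM1 arrays were below the control of their own slide, by 0.31 and 0.52, while slide 2 was far above slide 1 in both groups, so the groups overlap. The difference was -0.42, or 75% of control, with a standard error of 0.96 from the arrays within groups and 0.11 with the block. Limma, which borrows variance from other genes, moderated the blocked error to 0.09 (adjusted p = 0.00635 in limma with the block, 1 without). The blocked adjusted p was 0.0579 under quantile scaling, 0.0605 under loess and 0.0703 in the authors' table, so of these scalings only normexp (0.0197) kept the call. Leaving out shCTL replicate 2 or shCM1 replicate 1, which unbalances the slides, turned the difference to 0.32 and 0.21.

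Hist1h2bl showed the same order of arrays, with 3.59 and 4.26 in the controls and 3.4 and 3.92 after knockdown (difference -0.26, blocked adjusted p = 0.0664 in limma). Hist3h2ba differed in its slide order: 2.79 and 2.12 in the controls, 2.37 and 1.92 after knockdown. Its difference of -0.31 had a blocked limma adjusted p of 0.050, just outside the threshold. Hist1h2bd read 0.17 and 1.33, then 0.08 and 0.97, and Hist1h2bh read 0.89 and 1.40, then 0.79 and 1.26, and these 2 probes share a run of 27 bases. All 5 of these H2B genes were lower on both slides. The other 2, Hist1h2ba and Hist3h2bb, gave low signals, went opposite ways on the 2 slides and had differences of 0.02 (-0.29 under quantile scaling) and 0.31. The 7 H2B genes had medians of -0.10 on slide 1 and -0.33 on slide 2.

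Genes of H4, the partner of H3 and the most conserved core histone, had 1 gene past the paired test among 3. Hist1h4m read 2.49 and 3.55 in the controls and 2.25 and 2.98 after knockdown, a fall on each slide within overlapping groups. Its difference was -0.40, 75.7% of control, with standard errors of 0.65 within groups and 0.17 with the block. Limma, which borrows variance from other genes, moderated the blocked error to 0.09 and gave a blocked adjusted p of 0.0131. Under quantile, loess and the authors' scaling that p was 0.0796, 0.0994 and 0.111, and without shCTL replicate 2 the difference was 0.13. Hist1h4b read 2.31 and 3.49, then 2.21 and 2.99 (difference -0.30, blocked limma adjusted p = 0.0733). A second probe of Hist1h4b went the other way, with a difference of 0.29, so the direction of this gene depends on the probe. The probe used begins 271 bases into the transcript and the second one 1143 bases. Whether they read the same form of the transcript was not tested. Hist2h4 read -3.82 and -3.56, then -3.77 and -3.65, a difference of -0.02 that was -0.19 under quantile scaling and in the authors' table, -0.20 under loess and 0.07 with normexp.

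H1 genes, which encode the linker histones, were split by slide. Hist1h1a read -1.67 and -1.0 in the controls and -2.31 and -1.22 after knockdown, and Hist1h1b read 0.88 and 1.61, then 0.22 and 1.55. Both were lower on each slide, by 0.64 and 0.22 for Hist1h1a and by 0.65 and 0.06 for Hist1h1b, with blocked limma adjusted p of 0.0565 and 0.0733. Hist1h1d read 1.01 and 1.24, then 0.55 and 1.49, so it was lower on slide 1 and higher on slide 2. Hist1h1t, the testis linker histone, was the member higher on both slides, with -3.83 and -4.46 in the controls and -3.53 and -4.09 after knockdown. Its difference of 0.34 had a blocked limma adjusted p of 0.299. The 4 genes had medians of -0.55 on slide 1 and 0.09 on slide 2, the widest gap between slides of the 5 types.

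H2A genes differed little, but with little spread. Hist1h2af read 4.87 and 4.98 in the controls and 4.76 and 4.72 after knockdown, Hist1h2an read 5.76 and 5.81, then 5.67 and 5.62, and Hist1h2ak read 5.99 and 5.89, then 5.89 and 5.80. Hist3h2a, the H2A gene of the third cluster, read 4.29 and 4.32, then 4.15 and 4.21. In these 4 genes both shCM1 arrays were below both controls (for Hist1h2ak by less than the last printed digit). That was also so in 10.1% of all genes and in 20.9% of genes above the 75th percentile, where these 4 lie. The differences were -0.18, -0.14, -0.10 and -0.12, and none was called (blocked limma adjusted p from 0.175 to 0.472). Shared probe letters mean that the first 3 are not separate readings. Hist1h2aa was dim and went opposite ways on the slides, with a difference that rounds to 0 (-0.20 under quantile scaling).

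H3 genes gave no common direction. Hist3h3, an H3 gene of the third cluster, read 0.18 and 1.02 in the controls and -0.31 and 0.86 after knockdown, lower on each slide (difference -0.33, blocked limma adjusted p = 0.0773). Hist2h3c2 read 4.26 and 4.75, then 4.20 and 4.76, a difference of -0.03. The overlapping probe of the same gene read 1.98 and 2.95, then 1.54 and 2.64, a difference of -0.38. The 2 probes of Hist2h3c2 printed above therefore gave unlike values although they share 29 bases. Hist1h3a, whose probe begins 1332 bases into the transcript, was dim and went opposite ways on the slides. Its difference of 0.10 turned to -0.01 under quantile scaling.

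The slides differed more than the groups did for several replication-dependent genes. Hist1h1a, Hist1h1b, Hist1h2bd, Hist1h2bk, Hist1h2bl, Hist1h4b, Hist1h4m and Hist3h3 were higher on slide 2 than on slide 1 by over 0.5 log2 in both groups. That was 8 of 22 replication-dependent genes and 0 of 9 variant genes, beside 8.87% of all genes. Hist1h2bk, for example, was 1.47 higher on slide 2 in the controls and 1.25 higher after knockdown, against a knockdown difference of -0.42. Same-numbered arrays shared a slide. If they also shared an experiment, slide and experiment cannot be told apart. Markers of astrocytes were also higher on slide 2, by a median of 0.61 in the controls and 0.41 after knockdown. The summed level of neural progenitor markers was 103 and 162 times the 75th percentile in the controls and 114 and 195 after knockdown. Of these 9 markers, 8 were higher in shCM1 on both slides, beside 44.0% of all genes. Most of the summed level came from Fabp7, which was 0.97 and 0.99 higher on slide 2. In the controls Nes was lower on slide 2 (-0.51) and Vim differed by 0.01. The summed level of neuron markers went the other way, with 282 and 217, then 261 and 195. Most of it came from Stmn2, which was 0.51 and 0.46 lower on slide 2, while Syt1 and Nefm were higher there in the controls (0.18 and 0.11). The median gap of the 10 markers was -0.13 in the controls and -0.31 after knockdown. Of the 10, 7 were lower in shCM1 on both slides, beside 22.6% of all genes and 43.1% of those above the 75th percentile. The part of these cells in the slide gap was not tested.

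**Figure D3:**
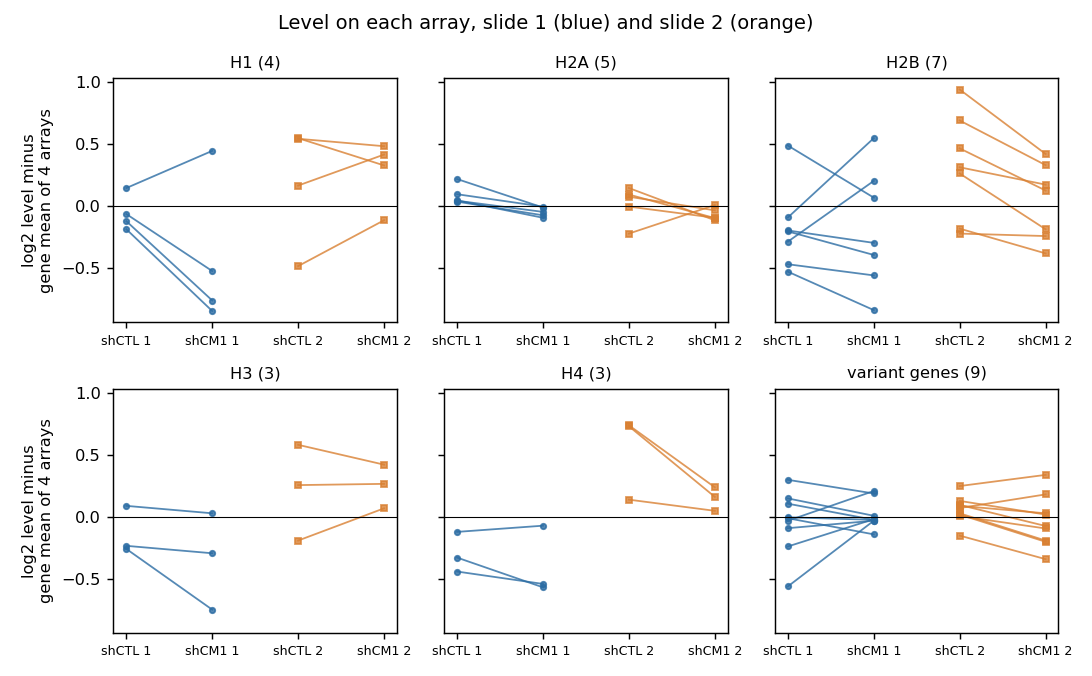
Level of each histone gene on each array minus that gene's mean over 4 arrays (log2, y axis), in 1 panel per replication-dependent type and 1 for the variant genes, with the number of genes in brackets; lines join the shCTL and shCM1 arrays of a slide. H4 and most H2B genes step up from slide 1 to slide 2 by more than they step down from shCTL to shCM1, while H2A genes lie close to their means on every array.

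Among variant genes, H2afz, which encodes H2A.Z, had the lowest difference. It read 5.88 and 5.76 in the controls and 5.74 and 5.54 after knockdown, and the groups did not overlap. Its difference was -0.18, or 88.4% of control (blocked limma adjusted p = 0.164), and it ranged from -0.23 to -0.09 under the other scalings. H2afy, which encodes macroH2A1, a repressive variant with a large extra domain, read 4.56 and 4.46, then 4.43 and 4.36, again without overlap (difference -0.11). H2afj read 5.39 and 5.49, then 5.37 and 5.32, the third variant whose groups did not overlap (difference -0.10). Such groups were found in 10.1% of all genes and in 20.9% of genes above the 75th percentile. Under quantile scaling the differences of H2afy and H2afj were -0.03 and -0.01. H2afx, whose product is phosphorylated at DNA breaks, read 1.26 and 0.81, then 1.15 and 0.62, lower on each slide but with overlapping groups. H1f0, the linker histone of cells that have stopped dividing, read 3.34 and 3.48, then 3.21 and 3.37. Its difference was -0.12, and a second probe at another place in the transcript gave 0.10.

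H3f3b is one of the genes for H3.3, the H3 variant laid down without replication. It read 5.32 and 5.63 in the controls and 5.54 and 5.74 after knockdown. The difference was 0.17, or 112% of control, positive on both slides and in every scaling (0.14 to 0.25), and not called (blocked limma adjusted p = 0.201). Over all genes, 44.0% were higher on both slides. H2afb3, a short H2A variant known from testis, was the other variant higher on both slides, with -4.69 and -3.88, then -4.16 and -3.79 (difference 0.31). H2afv, the second H2A.Z gene, read 5.18 and 5.36, then 5.24 and 5.30, and H2afy2, for macroH2A2, read -0.79 and -0.74, then -0.55 and -0.96. Both went opposite ways on the slides and had differences of 0.00 and 0.01.

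The contrast between the classes was small. The median of the replication-dependent genes minus that of the variant genes was -0.09 on slide 1, -0.04 on slide 2 and -0.03 for the mean of both slides. It was -0.15 under quantile scaling, -0.17 under loess and -0.16 in the authors' table, and it was 0.00 with normexp, where both classes had a median of -0.13. Leaving out shCTL replicate 2 or shCM1 replicate 1 turned the replication-dependent median to 0.05, because the groups then hold unequal numbers of arrays from the 2 slides. Leaving out shCTL replicate 1 or shCM1 replicate 2 gave -0.25 and -0.24.

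The files name further histone probes by transcript or locus, and 20 of them got a gene name through RefSeq outside the rule above. Of 12 replication-dependent ones, 10 were lower on both slides (median -0.17), beside 22.6% of all genes, and 3 were called lower with the block, beside 3.05%. These 3 lay above the 75th percentile, where 43.1% of genes were lower on both slides and 7.31% were called lower. H4cl1, an H4-like gene, read 0.43 and 2.08, then 0.01 and 1.33 (difference -0.59, blocked limma adjusted p = 0.00161). H2bc18 read 2.83 and 3.53, then 2.50 and 3.14 (difference -0.37, blocked limma adjusted p = 0.0133), and H2bcl1 read 1.88 and 2.78, then 1.57 and 2.40 (difference -0.34, blocked limma adjusted p = 0.0262). These repeat the slide gap of Hist1h2bk and Hist1h4m, and they come from the same arrays. Several are copies of members and may read the same transcripts. Of 8 variant probes, 7 were higher on both slides (median 0.19), beside 44.0% of all genes, and 0 were called. The main probe of H3f3a, the other H3.3 gene, read 6.40 and 6.36 in the controls and 6.49 and 6.59 after knockdown, without overlap (difference 0.16, blocked limma adjusted p = 0.206). H3f3c and H3f3al1, which resemble it, gave 0.14 and 0.32.

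Promoters of the members were taken from the RefSeq table (GRCr8), which holds 250 bases before and 50 after the start, and 29 of 31 members matched it. Searched on both strands, CCAAT was in 18 of 20 replication-dependent and 6 of 9 variant windows, against 37.5% of 33469 promoters. The octamer ATTTGCAT, known from H2B promoters, was in 9 of 20 and 1 of 9, against 1.78% of all, and TATAAA was in 11 of 20 and 3 of 9, against 14.2%. By type, ATTTGCAT was in 5 of 7 H2B and 4 of 5 H2A windows, and in none of the 4 H1, 2 H3 and 2 H4 windows. In rn4 the Hist1h2an probe lies between those of Hist1h4m and Hist1h1b, on the minus strand. Their windows begin at chr17:47393514 and chr17:47421625 of GRCr8, but that of Hist1h2an begins at chr17:41962441 on the plus strand. That window, 1 of the H2A matches, may therefore belong to another H2A copy. The windows of Hist1h2aa and Hist1h2ba overlap, as do those of Hist3h2a and Hist3h2bb, so their matches are counted under both types. With each such pair counted once, 7 of 18 windows held ATTTGCAT. Neither H4 window, of Hist1h4b and Hist1h4m, held any of the 3 motifs in these letters. The stretch before the start of Hist1h2bk (RefSeq H2bc12) is shown because this gene had the lowest adjusted p, with CCAAT, its reverse complement ATTGG and the octamer in capitals, at chr17:47181941-47182124 on the minus strand of GRCr8.
Hist1h2bk promoter: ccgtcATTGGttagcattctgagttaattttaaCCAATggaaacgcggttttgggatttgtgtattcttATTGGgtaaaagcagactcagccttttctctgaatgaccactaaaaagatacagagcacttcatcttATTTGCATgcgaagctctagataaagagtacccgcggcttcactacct
It holds 3 CCAAT matches, on either strand, and 1 octamer that begins 48 bases before the start. A match is a run of letters and not a measured binding site.

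Genes that work with histones were read from lists. Histone mRNA 3′ processing genes (21 measured, median -0.04) had 1 gene called lower with the block and 0 higher, beside 3.05% and 3.7% of all genes. That gene was Celf1, which encodes an RNA-binding protein: it read 4.57 and 4.70, then 4.09 and 4.13 (difference -0.52, blocked limma adjusted p = 0.000358). No other gene of the list was called. Slbp, which encodes the stem-loop binding protein, differed by -0.01, Npat, the activator of histone transcription, by -0.12, and Lsm11, a part of the U7 particle, by -0.04. Cpsf2 read 1.15 and 1.34, then 0.95 and 0.96 (difference -0.29, blocked limma adjusted p = 0.0856). In the whole list 6 genes were lower on both slides and 5 higher, beside 22.6% and 44.0% of all genes. Among 16 polyadenylation genes the median was -0.04 and 0 were called, with Cstf3 at -0.25 and Pcf11 at -0.26 having the smallest p.

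Dividing-cell genes were lower together with the replication-dependent histones. Of 25 mitosis genes, 23 were lower on both slides and 0 higher (median -0.35, with -0.46 on slide 1 and -0.19 on slide 2), and 8 were called lower with the block, beside 3.05% of all genes. Under quantile scaling 3 of the 25 were called (Cdk1, Aurka and Birc5), and under loess 1 (Aurka). Cdk1, the mitotic kinase, read 2.83 and 3.07 in the controls and 2.12 and 2.76 after knockdown (difference -0.51, blocked limma adjusted p = 0.00324). Aurka, Birc5 and Ccnb1 differed by -0.58, -0.44 and -0.45. Of 29 DNA replication genes, 17 were lower on both slides and 2 higher (median -0.17). Over all genes, 22.6% were lower on both slides. The block fit called 2 of the 29 lower, beside 3.05% of all genes: Tk1 at -0.59 and Cdc45 at -0.41. Of these, Tk1 was called under quantile scaling and neither under loess. The mitosis and replication medians were farther below 0 on slide 1, as were those of the H1 genes, while the H2B and H4 medians were farther below 0 on slide 2. The part of dividing cells in the histone values was not tested.

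Histone chaperones (35 genes, median -0.03) had 2 called lower with the block and 1 higher, beside 3.05% and 3.7% of all genes. Chaf1b, a subunit of the replication-coupled chaperone CAF-1, differed by -0.40, Supt16h, a subunit of FACT, by -0.54, and Nap1l5, a NAP-family gene, by 0.40. Chaf1b was not called under quantile scaling or loess (blocked limma adjusted p = 0.0783 and 0.0898). HMG and other chromatin proteins (19 genes, median -0.09) had 3 called lower with the block, beside 3.05% of all genes. They were led by Hmgb1, an abundant DNA-bending protein. Hmgb1 read 3.94 and 4.25, then 3.22 and 3.39 (difference -0.79, blocked limma adjusted p = 5.82e-06). Cbx1, which encodes a heterochromatin protein, and Chd4, a remodelling ATPase, differed by -0.67 and -0.36. Chd4 was not called under quantile scaling or loess (blocked limma adjusted p = 0.0993 and 0.0929). Of 36 histone-modifying enzymes, 0 were called (median 0.00), and Kdm6b at 0.27 and Kdm5c at 0.39 had the smallest p.

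**Figure D4:**
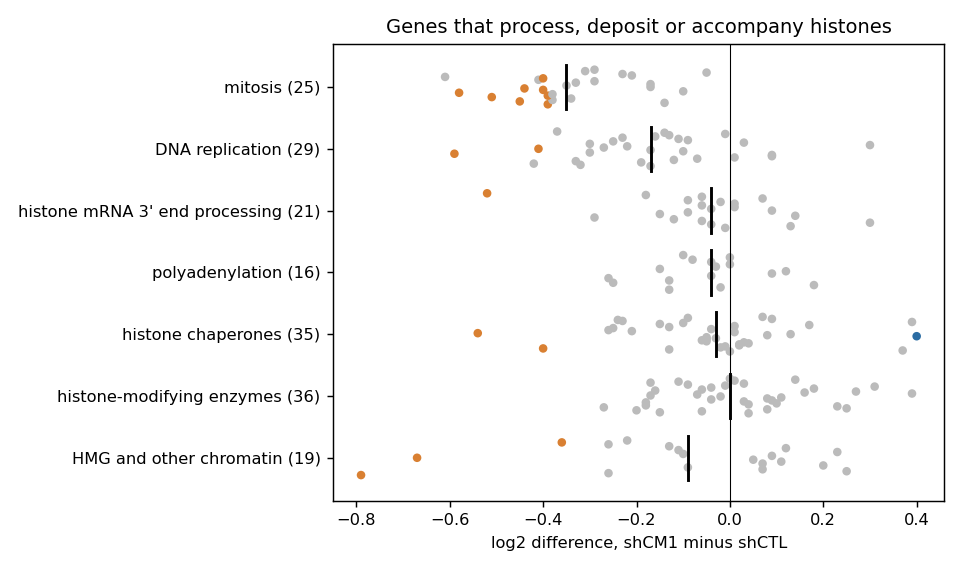
Log2 difference, shCM1 minus shCTL, of each gene (points) in 7 lists of genes that process, deposit, modify or accompany histones, with the number of measured genes in brackets and the list median as a black bar. Orange and blue points were called lower and higher by limma with the slide as a block. The mitosis list lies wholly below 0 with a median of -0.35, and the medians of the other lists lie between -0.17 and 0.00.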

How the data were processed

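The 4 single-colour Agilent arrays were read from the deposited scanner files, whose intensity values came from Feature Extraction (version 10.7.3.1), per the file headers. The processed signal is already background-subtracted there. Control spots and 86 to 98 outlier spots per array were left out, and 0 gene spots were saturated. Probe signals were averaged, divided by the array's 75th percentile and put on the log2 scale, and 30360 genes were tested in limma 3.58.1 (R 4.3.3) with Benjamini-Hochberg adjustment at 0.05. The deposited value table also holds intensity values; how the authors normalized it is not stated in any label or header. Its array medians were 118 to 132. It was used as an alternative.

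The main model had no block. The replicate number is also the slide and scan per the file headers, and same-numbered arrays deviated together (r = 0.713 for the single pair of numbers), so paired values are printed where they change a call. Whether arrays came from separate cultures beyond the stated experiments is not given, and p-values refer to these arrays only, whose number limits them. Blocked p-values rest mostly on a variance that limma drew from other genes of like signal. Its prior degrees of freedom were 18.72 with the block and 3.388 without. A blocked p-value therefore does not measure the spread of that gene alone.

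The members and gene lists were chosen with earlier results of these data known. Every member is accounted for, and those past the blocked threshold, those with the largest differences of 1 sign and the main variants are given on every array. For the lists, up to 4 genes past that threshold are named, or else the 2 with the smallest p. Names came from accessions, gene IDs or symbols in RefSeq; 16306 probes kept the file's name. Probe positions are those of rn4 per the file headers. The fit was tested on simulated data.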

Additional observations from a re-analysis of the deposited data

How the results depend on the processing

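With the replicate block, limma called 2049 genes against 0 without it, and 2 replication-dependent members against 0. Blocked calls over all genes numbered 941 under quantile scaling, 741 under loess, 1413 with normexp, 694 in the authors' table, 367 without a filter on dim probes, 2027 with all 4 arrays required above background, and 1472 with the mean of a gene's probes. The blocked member calls were 3 with normexp and with all 4 arrays required, adding Hist3h2ba, 2 with the mean of probes, and 0 under quantile scaling, loess, the authors' table and without a filter on dim probes. Without an intensity trend the blocked fit called 0 genes, and 5101 had an unadjusted p under 0.05. The replication-dependent median was -0.18 under quantile scaling and in the authors' table, -0.20 under loess, -0.17 with the mean of probes and -0.23 over genes above the 75th percentile, an alternative added after seeing the data. The variant median was -0.03, -0.03, -0.02 and -0.01 under the same first settings. The difference of medians was -0.15 under quantile scaling, -0.17 under loess, -0.16 in the authors' table and with the mean of probes, -0.08 without a filter, -0.11 for bright genes and 0.00 with normexp. These medians are the same with and without the block. The cause of these shifts was not tested.

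Leaving out 1 array gave 0 to 1 calls over all genes, replication-dependent medians of -0.25 to 0.05, variant medians of -0.12 to -0.02 and differences of medians of -0.21 to 0.17. It leaves the slides unequal between groups, and 19 of 31 genes turned sign under at least 1 alternative, not counting Hist1h2aa (-0.22 to 0.22) and H2afv (-0.09 to 0.09), whose difference rounds to 0 to begin with. The ranges were -0.09 to 0.71 for H2afb3, -0.42 to 0.11 for H2afx, -0.19 to 0.21 for H2afy2, -0.97 to 0.12 for Hist1h1a, -1.02 to 0.30 for Hist1h1b, -0.57 to 0.37 for Hist1h1d, -0.25 to 0.30 for Hist1h2ba, -0.81 to 0.36 for Hist1h2bd, -0.37 to 0.14 for Hist1h2bh, -1.15 to 0.32 for Hist1h2bk. The others ranged from -0.59 to 0.07 for Hist1h2bl, -0.03 to 0.24 for Hist1h3a, -0.89 to 0.30 for Hist1h4b, -0.93 to 0.13 for Hist1h4m, -0.31 to 0.26 for Hist2h3c2, -0.15 to 0.11 for Hist2h4, -0.64 to 0.03 for Hist3h2ba, -0.09 to 0.71 for Hist3h2bb, -0.91 to 0.26 for Hist3h3. Other alternatives turned H2afy2 (-0.03 under quantile scaling and in the authors' table, -0.02 under loess), Hist1h2ba (-0.29 under quantile scaling, -0.20 under loess, -0.01 with normexp, -0.28 in the authors' table), Hist1h3a (-0.01, -0.02 under loess), Hist2h3c2 (0.06, 0.05 under loess) and Hist2h4 (0.07 with normexp). With 2 arrays a group, differences near 0.1 were not separable from the spread, and dim probes give only coarse values.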
